A study of Mus musculus with 45 samples.

Results

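Klhl13, Nup62cl, Rpl22l1, Gm364, Wnk3-ps, D130040H23Rik and snoZ40 are 7 genes of 33924 listed, 20645 of which varied in both RNA-seq tables, whose expression was higher in homozygous than in heterozygous undifferentiated cells of both deletion lines of the long noncoding RNA gene 5430416N02Rik. They were chosen by that difference: in each line a gene had to pass a limma adjusted p under 0.1 and a log2 difference over 0.5 between homozygous and heterozygous samples. What the choice did not use is their behavior after retinoic acid (RA), which drives mouse embryonic stem cells (ESCs) out of pluripotency. The questions were whether the genes stayed higher in homozygous cells after RA and how they responded to RA in the first place.

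The 24 RNA-seq samples form 8 groups with 3 biological replicates each. All groups are D3 mouse ESCs of strain 129, grown without feeders. In ΔPG cells a PGK-puro cassette takes the place of the promoter and gene body of 5430416N02Rik, and in ΔG cells GFP-IRES-Puro takes that of the gene body alone. Heterozygous cells carry the deletion and its cassette on 1 allele, so they are not wild type, and homozygous cells carry it on both. Cells of each genotype and line received the solvent DMSO (ES) or 2 µM RA for 48 h (RA). The study made 2 clones of each genotype and line. Its RNA-seq figure labels 1 heterozygous and 1 homozygous clone per line, so genotype and clone cannot be told apart here. Levels are given as rlog values, DESeq2's regularized logarithm to base 2, in which genes with few reads are pulled toward the gene's mean. The ΔPG and ΔG samples were normalized in separate tables of 12, and every test was made within a table. The read depth of a sample is unknown from these values.

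The deleted gene and the differentiation markers followed the labels. 5430416N02Rik had rlog values of 4.62, 4.58 and 4.59 in heterozygous and 2.23, 2.21 and 2.46 in homozygous ΔPG ES samples, and of 5.58, 5.54 and 5.50 against 2.63, 2.77 and 2.85 in ΔG. After RA it was 4.24, 3.80 and 4.44 against 2.66, 2.12 and 2.28 in ΔPG and 5.64, 5.52 and 5.58 against 2.63, 3.08 and 2.77 in ΔG cells, without overlap in any of these 4 comparisons. With RA, 8 of 8 pluripotency genes fell and 8 of 8 RA response genes rose in both tables, Nanog by -4.33 in ΔPG and -4.54 in ΔG and Cyp26a1, the enzyme that degrades RA, by 4.58 and 5.71 (log2 differences averaged over genotypes). Within a group, Pearson's r between replicates ran from 0.998 to 0.999 across all genes, and no sample stood apart by this measure. Such an r is near its ceiling and would show large departures only.

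Other cell type markers differed between genotypes after RA, and some of their sums did so in ES samples too. Of 8 markers of extraembryonic endoderm, 7 rose with RA in each table, and after RA 4 were lower in homozygous than heterozygous ΔPG cells (Gata4, Sox17, Dab2 and Lama1, the last by -0.95) and 2 in ΔG cells (Dab2 and Lama1, the last by -1.03). The log2 of their summed level was 11.43, 11.48 and 11.47 in heterozygous and 10.62, 10.56 and 10.62 in homozygous ΔPG samples after RA, and 11.75, 11.77 and 11.80 against 10.89, 10.89 and 10.88 in ΔG. In ES samples this sum was already lower in homozygous cells. It was 9.38, 9.42 and 9.38 against 8.97, 9.03 and 9.03 in ΔPG, and 9.08, 9.01 and 9.08 against 8.61, 8.75 and 8.75 in ΔG. Genotype differences in ΔPG ES cells followed GC content, as described below. Lama1, a laminin chain, had the highest rlog value of the endoderm list and so the most weight in its sum. No marker of this list stayed under an rlog value of 3 in all groups of a table. The fibroblast list, led by Pdgfra in ΔPG and by Col1a2 in ΔG, had 2 of 6 genes lower in homozygous ΔG cells after RA (Col1a2 and Pdgfra), with a summed level of 10.00, 10.04 and 10.09 in heterozygous and 9.13, 9.10 and 9.10 in homozygous samples. The fibroblast sums of the genotypes overlapped in ΔG ES samples. Neural sums after RA were 9.30, 9.30 and 9.35 in heterozygous and 9.64, 9.59 and 9.59 in homozygous ΔG samples. In ΔPG they were 9.80, 9.77 and 9.82 against 9.70, 9.64 and 9.62. Trophoblast sums were 10.76, 10.76 and 10.87 in heterozygous and 11.08, 11.10 and 11.09 in homozygous ΔG samples. In ΔPG these were 10.90, 10.93 and 10.91 against 10.64, 10.73 and 10.74. Krt18 had the highest rlog value of the trophoblast list and Nes that of the neural list, so each weighed most in its sum. Between genotypes after RA, Krt18 alone differed by 0.29 in ΔG and -0.21 in ΔPG, and Nes by 0.26 and -0.088. In each line, 3 of 6 trophoblast and 2 of 5 measured neural genes stayed under an rlog value of 3 in all groups. So did 1 of 6 fibroblast genes. With RA, 2 of 5 measured neural genes rose and 1 fell, 2 of 6 trophoblast genes rose and 1 fell, and 5 of 6 fibroblast genes rose, in each table, while the sixth, Thy1, fell in ΔPG (-0.60). Of all genes, 16.3% rose and 11.3% fell with RA in ΔPG, and 17.1% and 11.7% in ΔG. Tubb3 of the neural list and Hand1 of the trophoblast list were higher in homozygous ΔG cells, Klf4 lower and Hoxb1 higher in homozygous ΔPG cells. Between genotypes after RA, 0.241% of all genes were called higher and 0.605% lower in ΔPG, and 0.676% and 1.46% in ΔG. The part of these markers in the results for the 7 genes was not tested. In bulk RNA, fewer cells that express a gene and less of its RNA per cell cannot be told apart.

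The genes whose role is known act in different processes. Klhl13 is a substrate adaptor of CUL3 ubiquitin ligases and takes part in the removal of Aurora B kinase from mitotic chromosomes. Nup62cl is named for its likeness to part of Nup62, a protein of the central channel of the nuclear pore. Rpl22l1 is a paralog of the ribosomal protein Rpl22, which is known to hold down Rpl22l1 in mouse tissues. Wnk3-ps is listed by RefSeq as another name of Wnk3, a kinase of the WNK family that regulates chloride cotransporters, and snoZ40 is a small nucleolar RNA, a class of short RNAs that guide the chemical modification of ribosomal RNA.

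In the undifferentiated cells that served for the choice, the log2 difference between homozygous and heterozygous samples ran from 0.59 (Wnk3-ps) to 1.74 (snoZ40) in ΔPG and from 0.51 (Nup62cl) to 1.23 (Wnk3-ps) in ΔG. These values describe the choice and test nothing. Over all genes, 6.87% were called higher in homozygous ΔPG and 0.354% in homozygous ΔG ES samples. Nup62cl was just inside the limit of 0.5, with 0.98 in ΔPG and 0.51 in ΔG, and Fsd1l was just outside, with 0.92 in ΔPG and 0.47 in ΔG. The mean rlog value reached 3 in both tables for all 7 genes. After quantile normalization the ΔG difference of Nup62cl was 0.48.

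The 7 genes share a low GC content. Their exons hold 36.0% (D130040H23Rik) to 44.6% (Nup62cl) G and C, where the median gene with a mean rlog value of 3 or more had 50.0% in ΔPG and 49.9% in ΔG. In ΔPG ES cells the genotype difference itself followed GC content (Pearson's r -0.705 across 11904 genes, which are not independent replicates), and 2552 other genes with a GC content in the range of the 7 had a median log2 difference of 0.44. In ΔPG cells after RA the corresponding r was -0.0011 and the median 0.012. In ΔG cells r was 0.0057 in ES and 0.11 after RA. With the GC trend removed from each sample, the ES difference in ΔPG cells was 1.36 for Klhl13, 1.21 for snoZ40, 0.74 for Nup62cl and 0.64 for Rpl22l1. It was 0.21 for Gm364, 0.083 for Wnk3-ps and -0.11 for D130040H23Rik, so that 4 of the 7 stayed over 0.5. In ΔG ES cells all 7 stayed over 0.5, from 0.52 to 1.23.

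After RA, the genotype difference was called for different genes in the 2 lines. In ΔPG cells 1 of 7 was called higher in homozygous samples (Klhl13), where 0.241% of 21979 genes were, and the median log2 difference of the 7 was -0.068 against 0.0052 over all genes. In ΔG cells 4 of 7 were called higher (Rpl22l1, Gm364, Wnk3-ps and snoZ40), where 0.676% of 22048 genes were, with a median of 0.58 against 0.00080. By limma 0 of 7 were called lower in each line, against 0.605% of all genes in ΔPG and 1.46% in ΔG, and at an unadjusted p under 0.05 it was 1 in ΔPG (Wnk3-ps) and 0 in ΔG, where 6.44% and 10.8% of all genes were. Homozygous samples lay above heterozygous ones without overlap for 2 of 7 genes in ΔPG and 5 of 7 in ΔG, against 9.93% and 10.1% of all genes. They lay below them for 1 and 0 genes, against 8.87% and 11.7%. The lines were normalized apart, and the difference between them was not tested.

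**Figure D1:**
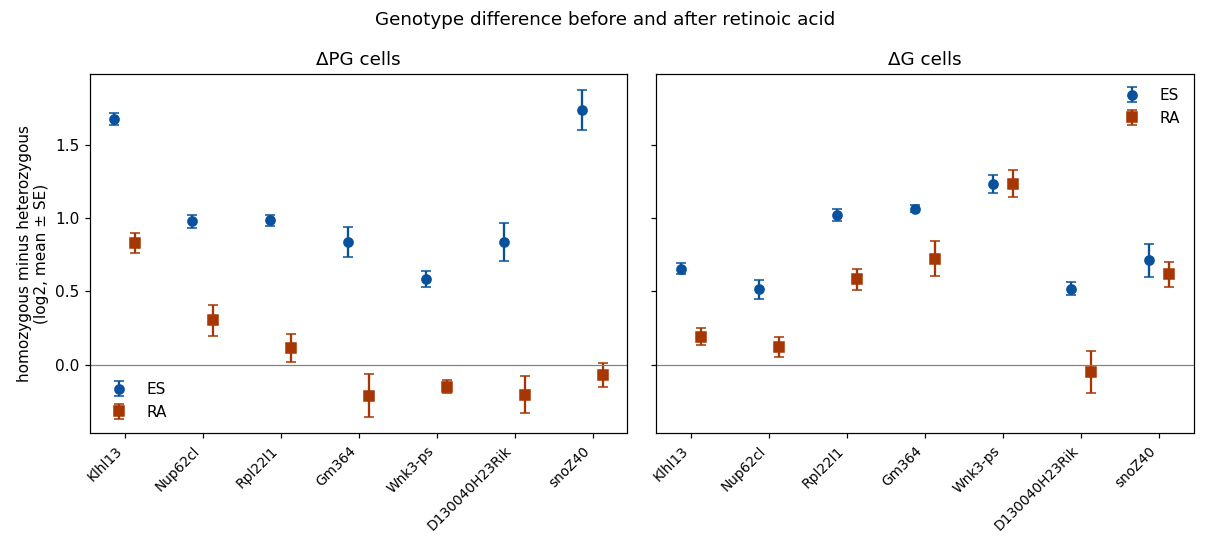
Log2 difference between homozygous and heterozygous samples for each of the 7 genes, in ES (circles) and after RA (squares), as the difference of 2 means of 3 samples with its SE. The ES differences chose the genes. After RA, Klhl13 stood at 0.83 in ΔPG cells, and Wnk3-ps, Gm364, snoZ40 and Rpl22l1 stood between 0.58 and 1.24 in ΔG cells.

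Klhl13 (ENSMUSG00000036782.6, NCBIM37 chromosome X from 22796397 to 22942208, minus strand) was the 1 gene of the 7 called higher after RA in homozygous ΔPG cells. Its rlog values in ΔPG ES samples were 7.67, 7.68 and 7.77 in heterozygous and 9.43, 9.35 and 9.36 in homozygous cells. After RA they were 8.70, 8.68 and 8.80 in heterozygous and 9.67, 9.54 and 9.47 in homozygous cells. The heterozygous ES samples were the lowest and the homozygous RA samples the highest, and no 2 of the 4 groups overlapped. After RA, homozygous samples were higher in 3 of 3 replicates (log2 difference of 0.83 ± 0.053 (SE), limma adjusted p = 2.63e-05). Averaged over genotypes, Klhl13 rose with RA (log2 difference of 0.60 ± 0.036 (SE), limma adjusted p = 1.97e-09), by 1.02 in heterozygous and 0.18 in homozygous cells. With the GC trend removed this rise was 0.43, under the limit.

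In ΔG cells the difference after RA was smaller. Klhl13 had rlog values of 9.50, 9.43 and 9.56 in heterozygous and 10.18, 10.13 and 10.15 in homozygous ES samples. With RA they stood at 9.83, 9.84 and 9.72 in heterozygous and 9.91, 10.01 and 10.05 in homozygous samples. The RA samples of the 2 genotypes still did not overlap, but lay close to each other between both ES groups. The difference after RA had a low adjusted p and a size under the limit of a call (log2 difference of 0.19 ± 0.048 (SE), limma adjusted p = 0.0148). Averaged over genotypes, the response to RA was under the limit too (log2 difference of 0.072 ± 0.032 (SE), limma adjusted p = 0.0593), with 0.30 in heterozygous and -0.16 in homozygous cells. The average was 0.29 after quantile normalization and 0.040 with the GC trend removed.

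After RA, other members of its family were not called between genotypes. Of all genes, 0.241% were called higher and 0.605% lower in ΔPG, and 0.676% and 1.46% in ΔG. At these shares, 0 calls in so short a list cannot set Klhl13 apart from its family. Of the other KLHL genes and CUL3 partners (Cul3, Rbx1, Keap1 and Aurkb), 0 of 36 in ΔPG and 0 of 35 in ΔG cells were called by limma, with 5 higher and 1 lower in ΔPG and 5 higher and 7 lower in ΔG at an unadjusted p under 0.05. At that cut 7.53% of all genes were higher and 6.44% lower in ΔPG, and 8.77% and 10.8% in ΔG. The medians of the list were 0.010 and 0.024 against 0.0052 and 0.00080 over all genes. With RA, 9 of 36 rose and 1 fell in ΔPG cells (6 and 4 after quantile normalization), where 16.3% of all genes rose and 11.3% fell. In ΔG cells 7 of 35 rose and 3 fell, against 17.1% and 11.7% of all genes, but 5 rose and 7 fell after quantile normalization. Under that scaling 13.2% of all genes rose and 13.9% fell in ΔPG, and 13.4% and 14.9% in ΔG. At a mean rlog value of 3 or more and without the GC trend, 4 of 23 rose and 3 fell in ΔPG. There 20.5% of such genes rose and 23.7% fell. In ΔG 3 of 24 rose and 3 fell, beside 21.6% and 25.2%. The largest responses were those of Klhl23 (2.28 in ΔPG, 2.64 in ΔG), Klhl5 (1.06 and 1.04), Klhl31 (1.01 in ΔPG) and Klhl22 (-0.93 in ΔG). Klhl9, the partner of Klhl13 in the CUL3 ligase that acts on Aurora B, differed by -0.034 between genotypes after RA in ΔPG and by 0.024 in ΔG, with overlapping samples (limma adjusted p = 0.763 and 0.882). Its ES values, as description, differed by 0.54 in ΔPG (0.14 with the GC trend removed) and 0.072 in ΔG.

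Nup62cl (ENSMUSG00000072944.4, chromosome X from 136541344 to 136597251, minus strand) had a difference after RA that was not called in either line. In ΔPG cells its rlog values were 6.13, 6.23 and 6.14 in heterozygous and 7.15, 7.08 and 7.20 in homozygous ES samples. In RA samples they were 7.21, 6.97 and 6.90 in heterozygous and 7.32, 7.42 and 7.26 in homozygous samples. Heterozygous ES samples were the lowest, heterozygous RA samples overlapped homozygous ES samples, and homozygous RA samples were the highest. After RA the genotypes had a log2 difference of 0.30 ± 0.085 (SE), limma adjusted p = 0.110, 95% interval 0.11 to 0.49. Its adjusted p depended on the choices made and was 0.0260 with genes of a mean rlog value under 3 left out, 0.0235 with the GC trend removed as well, and 0.230 without a variance trend.

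The ΔG table gave Nup62cl values of 7.36, 7.40 and 7.34 in heterozygous and 7.77, 7.88 and 7.98 in homozygous ES samples. Following RA they were 7.76, 7.95 and 7.76 in heterozygous and 7.98, 7.98 and 7.88 in homozygous samples. Again the heterozygous ES samples stood below all others, and the RA groups overlapped (log2 difference of 0.12 ± 0.073 (SE), limma adjusted p = 0.407). Averaged over genotypes, Nup62cl rose with RA in ΔPG cells (log2 difference of 0.53 ± 0.055 (SE), limma adjusted p = 9.70e-07). It rose by 0.86 in heterozygous and by 0.19 in homozygous cells. The call on the average was lost without heterozygous RA replicate 1 (0.48) and with the GC trend removed (0.37). In ΔG cells the response was 0.26 ± 0.052 (SE), under the limit.

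Of 27 nucleoporins measured, 1 rose and 4 (14.8%) fell with RA in ΔPG cells, where 16.3% of all genes rose and 11.3% fell. In ΔG cells 1 rose and 7 (25.9%) fell, where 17.1% and 11.7% of all genes did, with median log2 differences of -0.30 and -0.35 against 0.0074 and 0.030 over all genes. After quantile normalization 3 fell in ΔPG and 6 in ΔG, beside 13.9% and 14.9% of all genes. With the GC trend removed 11 fell in each line, beside 23.7% and 25.2% of the genes with a mean rlog value of 3 or more. Nup210 (-0.93) and Nup188 (-0.60) fell most in ΔPG cells, followed by Nup43 (-0.59). In ΔG cells Pom121 rose (0.76), and Nup160 (-0.75) and Seh1l (-0.72) fell. Nup62 fell in ΔPG cells (log2 difference of -0.51 ± 0.029 (SE), limma adjusted p = 9.99e-10), a call lost after quantile normalization (-0.35), and was -0.35 in ΔG cells, under the limit, but called there at -0.60 with the GC trend removed. Between genotypes after RA, limma called 0 of 27 in either line. Of all genes, 0.241% were called higher and 0.605% lower in ΔPG, and 0.676% and 1.46% in ΔG. At an unadjusted p under 0.05, 4 of 27 in ΔPG and 9 of 27 in ΔG were higher in homozygous samples and 0 were lower. At that cut 7.53% and 8.77% of all genes were higher, and 6.44% and 10.8% lower.

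Rpl22l1 (ENSMUSG00000039221.5, chromosome 3 from 28704358 to 28706274, plus strand) fell with RA in both lines and was called higher in homozygous cells after RA in ΔG. Its ΔPG values were 7.47, 7.35 and 7.39 in heterozygous and 8.38, 8.39 and 8.39 in homozygous ES samples. RA samples had values of 7.22, 7.07 and 7.26 in heterozygous and 7.45, 7.20 and 7.24 in homozygous samples. The homozygous ES samples stood above the other 3 groups, and the RA groups overlapped (log2 difference of 0.12 ± 0.079 (SE), limma adjusted p = 0.594, 95% interval -0.062 to 0.29). In ΔG cells the values were 8.46, 8.44 and 8.35 in heterozygous and 9.43, 9.40 and 9.48 in homozygous ES samples. After RA they were 7.85, 7.76 and 7.65 in heterozygous and 8.28, 8.29 and 8.43 in homozygous samples. Here 3 of 3 homozygous samples lay above all heterozygous ones after RA (log2 difference of 0.58 ± 0.071 (SE), limma adjusted p = 1.31e-05). The fall with RA, averaged over genotypes, had a log2 difference of -0.66 ± 0.048 (SE), limma adjusted p = 1.77e-08 in ΔPG and a log2 difference of -0.88 ± 0.044 (SE), limma adjusted p = 4.92e-17 in ΔG. In ΔPG it was -0.22 in heterozygous and -1.09 in homozygous cells (-0.57 and -1.10 with the GC trend removed). In ΔG it was -0.66 and -1.10.

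Rpl22, the paralog, differed between genotypes in opposite directions in the 2 lines, as did the medians of the ribosomal protein genes described below. In ΔPG cells it was 10.01, 9.99 and 10.00 in heterozygous and 10.25, 10.25 and 10.32 in homozygous RA samples. In ΔG cells it was 10.51, 10.51 and 10.40 in heterozygous and 10.01, 10.17 and 10.09 in homozygous samples. Neither pair of groups overlapped, and homozygous samples were the higher in ΔPG and the lower in ΔG. Both differences passed on adjusted p and were under the limit on size (log2 difference of 0.27 ± 0.029 (SE), limma adjusted p = 0.000621 in ΔPG, and log2 difference of -0.38 ± 0.045 (SE), limma adjusted p = 7.90e-06 in ΔG). In ES samples, Rpl22 differed by 0.72 in ΔPG and -0.45 in ΔG. In ΔG cells, therefore, Rpl22l1 was higher and Rpl22 lower in homozygous samples in both states, and in ΔPG ES cells both were higher. Any link between the paralogs was not tested.

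How many other genes of cytosolic ribosomal proteins fell with RA depended on the normalization. Reads of near-identical copies in the genome limit the values of these genes. As deposited, 60 of 81 (74.1%) fell in ΔPG and 63 (77.8%) in ΔG cells and limma called 0 higher (0 at an unadjusted p under 0.05), where 11.3% and 11.7% of all genes fell, with medians of -0.63 and -0.66 against 0.0074 and 0.030 over all genes. After quantile normalization 13 and 9 fell, where 13.9% of all genes in ΔPG and 14.9% in ΔG did, and the medians were -0.29 and -0.32, against -0.0017 and -0.0078. When the GC trend was removed, 66 and 76 of 80 with a mean rlog value of 3 or more fell, where 23.7% and 25.2% of such genes did, with medians of -0.74 and -0.77 against -0.095 and -0.094. The largest falls were those of Rpl10l (-2.05 in ΔPG and -2.34 in ΔG), Rplp2 (-1.14 in ΔPG), Rpl39l (-1.63 in ΔG) and Rpl12 (-1.11 in ΔPG and -1.05 in ΔG). Between genotypes after RA, the median was 0.24 in ΔPG and -0.19 in ΔG, and 0.19 and -0.15 after quantile normalization. By limma 1 gene was called in ΔPG and 0 in ΔG, Rps16 being higher by 0.83 with a limma adjusted p = 6.93e-07. At an unadjusted p under 0.05, 76 genes were higher and 2 lower in homozygous ΔPG cells, and 2 higher and 73 lower in homozygous ΔG cells. Of all genes, 7.53% were higher and 6.44% lower in ΔPG, and 8.77% and 10.8% in ΔG. The paralog Rpl22 had the direction of these medians in each line, and Rpl22l1, at 0.58 in ΔG, lay opposite to that of ΔG.

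Wnk3-ps (ENSMUSG00000041245.6, chromosome X from 147632683 to 147754695, plus strand, annotated as a processed transcript) rose with RA in both lines. In ΔPG cells it had values of 6.67, 6.76 and 6.78 in heterozygous and 7.24, 7.34 and 7.39 in homozygous ES samples. After RA it had 7.85, 7.83 and 7.94 in heterozygous and 7.77, 7.71 and 7.67 in homozygous samples. All RA samples exceeded all ES samples, and the order of the genotypes turned: after RA each homozygous sample lay below each heterozygous one, although this difference was not called (log2 difference of -0.15 ± 0.052 (SE), limma adjusted p = 0.203, 95% interval -0.27 to -0.035). The ES difference from which it turned was 0.59 in ΔPG as deposited and 0.083 with the GC trend removed. In ΔG cells it had 6.15, 6.06 and 6.01 in heterozygous and 7.34, 7.37 and 7.22 in homozygous ES samples. After RA it had 6.49, 6.55 and 6.71 in heterozygous and 7.78, 7.74 and 7.95 in homozygous samples. No 2 of the ΔG groups overlapped, and the difference after RA was the largest of the 7 genes (log2 difference of 1.24 ± 0.086 (SE), limma adjusted p = 4.51e-09, 3 of 3 samples higher). It was as large as that in ES, 1.23.

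The rise of Wnk3-ps with RA, averaged over genotypes, had a log2 difference of 0.77 ± 0.039 (SE), limma adjusted p = 3.51e-10 in ΔPG cells. In ΔG cells it was close to the limit of 0.5 (log2 difference of 0.51 ± 0.062 (SE), limma adjusted p = 2.14e-08) and fell under it after quantile normalization (0.46) and without replicate 3 of any of the 4 groups, at 0.49 (heterozygous ES), 0.48 (homozygous ES), 0.48 (heterozygous RA) and 0.48 (homozygous RA). Among 14 measured genes of the WNK pathway, which holds the WNK kinases, the kinases Oxsr1 and Stk39 that they activate, the cation-chloride cotransporters of the Slc12a family and the ligase parts that degrade WNKs, 4 rose and 1 fell in each line. Over all genes 16.3% rose and 11.3% fell in ΔPG and 17.1% and 11.7% in ΔG. After quantile normalization 5 of the 14 rose and 2 fell in ΔPG, and 3 rose and 2 fell in ΔG, beside 13.2% and 13.9% of all genes in ΔPG and 13.4% and 14.9% in ΔG. At a mean rlog value of 3 or more and without the GC trend, 2 of 11 rose and 1 fell in ΔPG. There 20.5% of such genes rose and 23.7% fell. In ΔG 2 of 12 rose and 1 fell, beside 21.6% and 25.2%. Wnk2 (1.87 in ΔPG and 1.64 in ΔG) and Stk39 (1.76 and 1.95) rose, and the cotransporter gene Slc12a7 fell (-0.97 and -0.93). Between genotypes after RA, limma called 0 of 14 in each line, where 0.241% of all genes were called higher and 0.605% lower in ΔPG and 0.676% and 1.46% in ΔG. At an unadjusted p under 0.05, 0 of the 14 were higher and 3 lower in ΔPG, and 2 higher and 1 lower in ΔG. Of all genes, 7.53% were higher and 6.44% lower in ΔPG at that cut, and 8.77% and 10.8% in ΔG. The medians with RA were 0.31 in ΔPG and 0.13 in ΔG, against 0.0074 and 0.030 over all genes.

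snoZ40 (ENSMUSG00000064797.1, chromosome 9 from 15119966 to 15120039, plus strand) is 74 bases long and lies in an intron of Taf1d, which encodes a subunit of the RNA polymerase I initiation factor. It is on the strand of Taf1d, so that reads of the snoRNA and of unspliced Taf1d RNA cannot be told apart. The sequence is shown because it carries the marks of the C/D class of snoRNAs, which guide 2′-O-methylation. It is given 5′ to 3′ from NCBIM37 chr9:15119966-15120039, with the motifs GTGATGA (C box) and CTGA (D box, the last of 3 copies) in capitals.
snoZ40: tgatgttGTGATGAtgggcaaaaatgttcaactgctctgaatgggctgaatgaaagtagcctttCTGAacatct

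In ΔPG ES cells snoZ40 was at 4.82, 4.43 and 4.60 in heterozygous and 6.30, 6.25 and 6.50 in homozygous samples. After RA it was at 5.77, 5.68 and 5.73 in heterozygous and 5.81, 5.61 and 5.55 in homozygous samples. The RA samples of both genotypes overlapped and lay between the 2 ES groups (log2 difference of -0.068 ± 0.094 (SE), limma adjusted p = 0.850), with a difference to ES of 1.11 in heterozygous cells and of -0.69 in homozygous cells. In ΔG cells snoZ40 was at 6.07, 5.93 and 6.24 in heterozygous and 6.89, 6.66 and 6.83 in homozygous ES samples. After RA it was at 5.33, 5.28 and 5.38 in heterozygous and 5.79, 6.03 and 6.01 in homozygous samples. All RA samples but homozygous replicates 2 and 3 lay below all ES samples, and 3 of 3 homozygous samples remained above the heterozygous ones (log2 difference of 0.62 ± 0.11 (SE), limma adjusted p = 0.000866). Averaged over genotypes, the fall in ΔG had a log2 difference of -0.80 ± 0.075 (SE), limma adjusted p = 8.87e-11, and in ΔPG the average was 0.21, under the limit (0.029 after quantile normalization and 0.038 with the GC trend removed).

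Taf1d, the host, fell with RA in ΔG cells and was not called between genotypes after RA. After RA it was at 7.82, 7.90 and 7.98 in heterozygous and 8.17, 8.04 and 8.02 in homozygous ΔPG samples, and at 8.06, 7.69 and 7.74 in heterozygous and 8.09, 8.14 and 7.84 in homozygous ΔG samples. The genotype differences were 0.18 (limma adjusted p = 0.200) and 0.20 (limma adjusted p = 0.249), and the samples overlapped in ΔG but not in ΔPG. In ES cells, as description, Taf1d was higher in homozygous samples by 1.17 in ΔPG (0.48 with the GC trend removed) and by 0.079 in ΔG. With RA, Taf1d fell in ΔG cells (log2 difference of -0.87 ± 0.056 (SE), limma adjusted p = 2.63e-14). SNORA8, in the same host, fell there as well (log2 difference -0.58, limma adjusted p = 7.73e-06) and differed between genotypes by -0.068 after RA. In ΔPG cells SNORA8 moved in the directions of snoZ40. As description, its genotype difference was 1.26 in ES (0.81 with the GC trend removed) and 0.070 after RA. Its response to RA was 0.41 in heterozygous and -0.78 in homozygous ΔPG cells (0.0013 and -0.74 with the GC trend removed). SNORA1 (mean rlog value 2.40 in ΔG) and SNORD5 (1.39 in ΔG), the other snoRNAs of this host, were low. Over the 12 samples of a table, which share the 4 groups, Pearson's r between snoZ40 and Taf1d was 0.84 in ΔPG and 0.82 in ΔG. With SNORA8 it was 0.82 and 0.60, with SNORA1 -0.16 and 0.57, and with SNORD5 0.77 and 0.20. Taf1d is named as the gene that overlaps snoZ40, and the other snoRNAs of its introns were chosen after values were seen.

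Of 165 other snoRNAs measured in ΔPG, 2 rose and 26 (15.8%) fell with RA, and of 167 in ΔG, 2 rose and 19 (11.4%) fell. Over all genes 16.3% and 17.1% rose and 11.3% and 11.7% fell. The falls were led by Snord17 (-1.41 in ΔPG), SNORA74 (-1.40 and -1.49), Snora73b (-1.35 and -1.06) and Snora74a (-1.09 in ΔG). After quantile normalization, 54 and 57 fell, where 13.9% and 14.9% of all genes did, and the medians were -0.10 in each line before it and -0.26 and -0.25 after it. Among those with a mean rlog value of 3 or more and the GC trend removed, 1 of 47 rose and 32 fell in ΔPG (median -0.59), where 20.5% of such genes rose and 23.7% fell. In ΔG 1 of 51 rose and 24 fell (median -0.48), beside 21.6% and 25.2%. Between genotypes after RA, 1 was called in ΔPG (SNORD12, log2 difference 0.59, limma adjusted p = 0.0869), a call lost after quantile normalization, and 0 in ΔG by limma, where 0.241% of all genes were higher and 0.605% lower in ΔPG and 0.676% and 1.46% in ΔG. At an unadjusted p under 0.05, 8 snoRNAs were higher and 3 lower in ΔPG (7.53% and 6.44% of all genes) and 6 higher and 9 lower in ΔG (8.77% and 10.8%).

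Gm364 (ENSMUSG00000079584.2, chromosome X from 54662331 to 54741944, plus strand), a protein-coding gene, was called higher in homozygous cells after RA in ΔG and not in ΔPG. In ΔPG cells its values were 4.85, 5.10 and 4.98 in heterozygous and 5.95, 5.78 and 5.71 in homozygous ES samples. With RA they stood at 5.12, 5.32 and 5.37 in heterozygous and 4.97, 4.90 and 5.30 in homozygous samples. The homozygous ES samples stood apart at the top, and the RA groups overlapped (log2 difference of -0.21 ± 0.13 (SE), limma adjusted p = 0.530, 95% interval -0.50 to 0.078). The ΔG values were 6.21, 6.17 and 6.22 in heterozygous and 7.29, 7.28 and 7.24 in homozygous ES samples. In RA samples they were 5.60, 5.80 and 5.56 in heterozygous and 6.53, 6.40 and 6.20 in homozygous samples. Homozygous RA samples were higher in 3 of 3 replicates (log2 difference of 0.72 ± 0.11 (SE), limma adjusted p = 0.000167). With RA, Gm364 fell in ΔG cells (log2 difference of -0.72 ± 0.069 (SE), limma adjusted p = 1.64e-10), and the average over genotypes in ΔPG was -0.23, under the limit (-0.46 after quantile normalization and -0.39 with the GC trend removed).

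D130040H23Rik (ENSMUSG00000079038.2, chromosome 8 from 71824675 to 71827061, plus strand), a protein-coding gene, was the lowest of the 7, with a mean rlog value of 3.80 in ΔPG and 4.23 in ΔG, and was not called after RA in either line. In ΔPG cells it had 3.08, 3.41 and 3.30 in heterozygous and 4.24, 4.12 and 3.94 in homozygous ES samples. After RA it had 4.21, 3.92 and 3.94 in heterozygous and 3.67, 3.82 and 3.95 in homozygous samples. The heterozygous ES samples were the lowest, and the other 3 groups overlapped. In ΔG cells it had 4.19, 4.12 and 4.23 in heterozygous and 4.70, 4.75 and 4.65 in homozygous ES samples. After RA it had 4.18, 3.98 and 3.98 in heterozygous and 3.90, 4.25 and 3.84 in homozygous samples. Here the homozygous ES samples were the highest and the RA groups overlapped. The difference after RA was -0.21 (limma adjusted p = 0.601, 95% interval -0.53 to 0.12) for ΔPG and -0.051 (95% interval -0.35 to 0.25, limma adjusted p = 0.883) in ΔG. No response to RA was called, at 0.24 and -0.42 averaged over genotypes. These values moved with the scaling: they were -0.17 and -0.83 after quantile normalization, the latter called, and 0.13 and -0.053 with the GC trend removed. As deposited, the response was 0.76 in heterozygous and -0.28 in homozygous ΔPG cells, and -0.14 and -0.70 in ΔG. Removal of the GC trend made these 0.20 and 0.062 in ΔPG and 0.21 and -0.31 in ΔG.

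**Figure D2:**
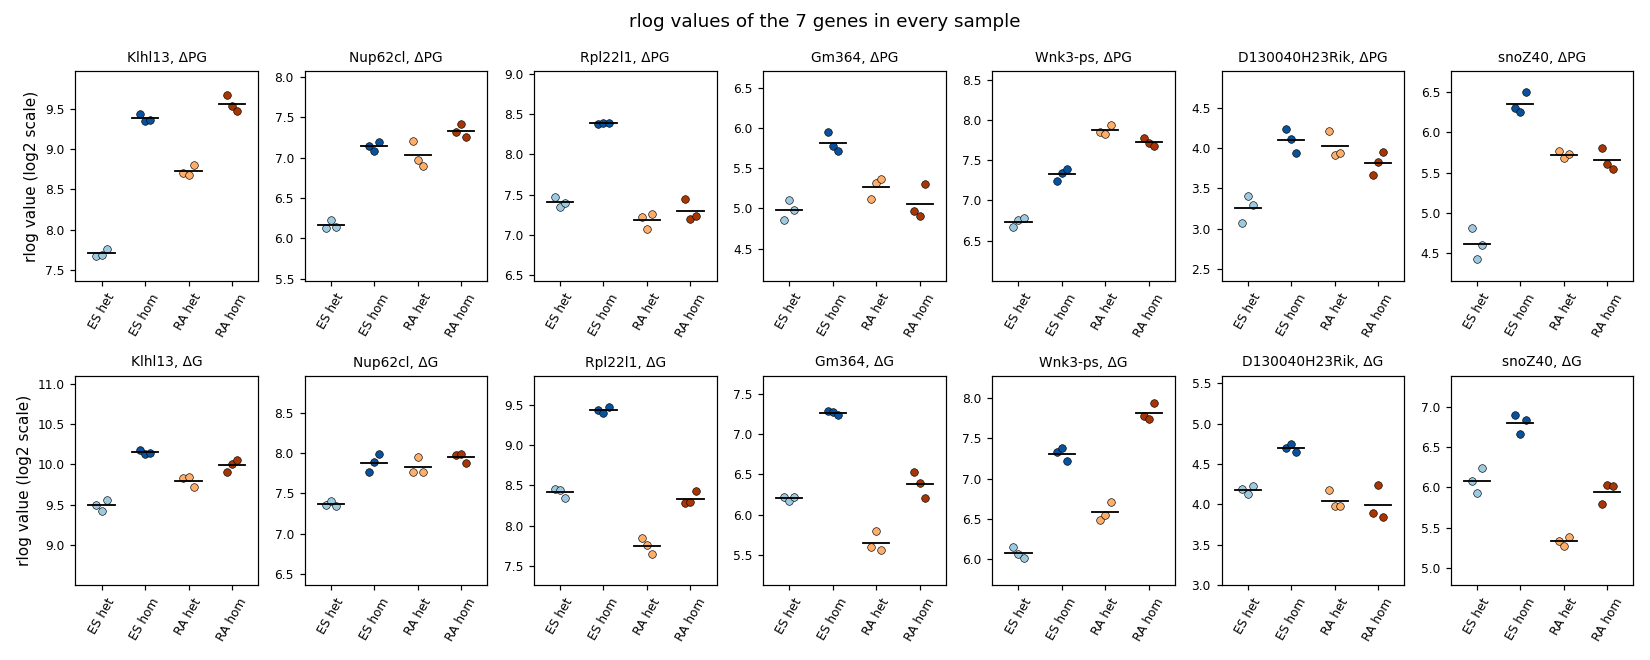
Rlog values (log2 scale) of the 7 genes in the 12 ΔPG samples (top) and the 12 ΔG samples (bottom), with 3 replicates as points and their mean as a line for each group. All panels span the same range of log2 units around their own level. In ΔPG cells the heterozygous ES samples have the lowest mean of the 4 groups for 6 of the 7 genes, the exception being Rpl22l1. The ES values chose the genes, and in ΔPG their genotype difference follows GC content. With the GC trend removed, Gm364 and D130040H23Rik are exceptions too. The heterozygous response to RA of Gm364 is then -0.17, and the ES genotype difference of D130040H23Rik is -0.11.

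Among the 7 genes the response to RA took both directions. In ΔPG cells 3 of 7 rose (Wnk3-ps, Klhl13 and Nup62cl) and 1 fell (Rpl22l1), against 16.3% and 11.3% of all genes. In ΔG cells 1 rose (Wnk3-ps) and 3 fell (Rpl22l1, snoZ40 and Gm364), against 17.1% and 11.7%, with medians of 0.24 and -0.42. Rpl22l1 fell and Wnk3-ps rose in both lines. The ΔG rise of Wnk3-ps was under the limit after quantile normalization (0.46), where D130040H23Rik was called lower in ΔG (-0.83). With the GC trend removed, Klhl13 (0.43) and Nup62cl (0.37) were under the limit in ΔPG. Over all genes, the share of risen among those called was 59.0% in ΔPG and 59.4% in ΔG, but 48.8% and 47.3% after quantile normalization. Among genes with a mean rlog value of 3 or more it was 55.4% and 55.8%, and 46.3% and 46.2% with the GC trend removed from these. The genotype difference after RA was smaller than that in ES for 7 of 7 genes in ΔPG, with changes from -0.67 (Nup62cl) to -1.80 (snoZ40), and for 6 of 7 in ΔG, the exception being Wnk3-ps. With the GC trend removed the ΔPG changes ran from -0.14 (D130040H23Rik) to -1.28 (snoZ40). Because the genes were chosen for a large difference in ES, a smaller one elsewhere is partly built into the choice.

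Klhl13, Nup62cl, Gm364 and Wnk3-ps lie on chromosome X and the other 3 on chromosomes 3, 8 and 9. Of 962 other X-linked genes measured in ΔPG, 1 was called higher and 5 lower in homozygous cells after RA, beside 0.241% and 0.605% of all genes. Of 973 in ΔG, 11 were higher and 20 lower, beside 0.676% and 1.46%, but 12 and 11 after quantile normalization, where 154 and 226 of 22044 genes were. Among those with a mean rlog value of 3 or more it was 10 and 9 with the GC trend removed, where 124 and 221 of 11997 genes were. The medians were 0.0048 and -0.0091 against 0.0052 and 0.00080 over all genes. Within 500 kb of the 7 genes, limma called 0 of 81 genes in ΔPG and 0 of 76 in ΔG between genotypes after RA, with 3 higher and 6 lower in ΔPG and 8 higher and 5 lower in ΔG at an unadjusted p under 0.05, where 7.53% and 6.44% of all genes were in ΔPG and 8.77% and 10.8% in ΔG. When the GC trend was removed, 1 of 44 with a mean rlog value of 3 or more was called higher in ΔG. With RA, 16 neighbors (19.8%) rose and 5 (6.17%) fell in ΔPG, beside 16.3% and 11.3% of all genes, and 13 (17.1%) rose and 10 (13.2%) fell in ΔG, beside 17.1% and 11.7%. After quantile normalization 9 rose and 7 fell in ΔPG, beside 13.2% and 13.9%, and 11 rose and 17 fell in ΔG, beside 13.4% and 14.9%. At a mean rlog value of 3 or more and without the GC trend, 9 of 41 rose and 9 fell in ΔPG. There 20.5% of such genes rose and 23.7% fell. In ΔG 9 of 44 rose and 12 fell, beside 21.6% and 25.2%. The largest responses were those of Rnf128 (3.73 and 4.36) and Morc4 (1.60 and 1.89), close to Nup62cl, and Slc36a4 (1.90 and 1.79), close to snoZ40.

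Among them are the nearest measured genes on either side. Wdr44, 327969 bp beyond Klhl13, differed between genotypes after RA by -0.034 in ΔPG and 0.027 in ΔG. Rbm41, 8210 bp from Nup62cl, differed by 0.041 and 0.16, and E230019M04Rik, on its other side, lay at the floor of both tables. Around Rpl22l1, Eif5a2 differed by -0.24 and -0.17 and Egfem1 by 0.17 and -0.079. Beside Gm364, Rbmx differed by 0.13 and -0.19, and Gpr101 was at the floor. Next to Wnk3-ps, Gm15138 was low, at a mean rlog value of 0.71 and 0.62, and Fam120c differed by 0.17 in ΔPG and -0.29 in ΔG, where Wnk3-ps was higher by 1.24. D130040H23Rik stands among zinc finger genes on chromosome 8. Its neighbor Zfp930 differed by 0.25 and 0.15, and Gm10033 by 0.19 and 0.13. Beside snoZ40, 5830418K08Rik, which overlaps the end of Taf1d, differed by -0.10 and -0.092. In ES cells, as description, some neighbors differed more. Zfp930 was higher in homozygous samples by 1.31 in ΔPG and 0.0013 in ΔG, and Gm10033 differed by 0.88 and -0.083. D130040H23Rik itself differed by 0.84 in ΔPG. For 5830418K08Rik the values were 0.73 and -0.19, for Eif5a2 0.61 and -0.15, and for Rbmx 0.52 and 0.042. In ΔPG ES cells such differences followed GC content.

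Chromatin contacts of the 5430416N02Rik promoter in ESCs were mapped by 4C-seq in 2 replicates, as long regions without a score. RefSeq places 6 of the 7 genes on GRCm38, the build that the region coordinates fit. Nup62cl, Rpl22l1, Gm364 and Wnk3 overlapped a region in both replicates, D130040H23Rik in replicate 1 only, and Klhl13 in neither, the nearest region being 3724 kb away in replicate 1 and 1382 kb in replicate 2. Thus 4 of 6 lay in regions of both replicates, against 34.2% of 49554 annotated genes and 28.5% of those on chromosome X. The regions hold many genes each, and nothing about the 7 was read from this count. snoZ40 was not placed, and its host Taf1d overlapped no region.

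The genes whose profile over the 12 samples of each table was most like that of a member, by the smaller of the 2 Pearson's r among 11766 genes whose mean reached 3 in both tables, were as follows. For Klhl13 they were the proteasome subunit gene Psmb2 (0.91) and the centrin gene Cetn3 (0.84), for Nup62cl Spc25 (0.89), a kinetochore protein, and Trove2 (0.89), and for Rpl22l1 Topors (0.92) and Ndufa6 (0.92), a subunit of respiratory complex I. For Gm364 they were Psma3 (0.87) and Hnrnpa2b1 (0.86), for Wnk3-ps Bzw1 (0.88) and the kinase gene Taok1 (0.88), for D130040H23Rik Tpp2 (0.91) and Xiap (0.86), and for snoZ40 Cops3 (0.94) and Tor1aip2 (0.93). Each r describes 12 samples that fall into the same 4 groups. Among the 7, Rpl22l1, Gm364 and snoZ40 had the closest profiles in ΔG (r of 0.94 to 0.97), and Klhl13 and Nup62cl in ΔPG (0.95). These pairs were singled out after their values were seen. Each r includes the ES samples that chose the 7 genes, so part of the likeness among them is built into the choice. In ΔPG the ES difference also followed GC content (Pearson's r -0.705 across genes).

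Promoter sequences of 6 of the 7 genes were found in RefSeq (GRCm38.p6, 300 bases around a transcript start, with 5 starts for Klhl13). The letters AGGTCA, of which retinoic acid receptors bind a pair of copies, and the TATA box TATAAA were searched on both strands, where they occur in 16.3% and 13.6% of 32851 promoters of this length. AGGTCA was found in 2 overlapping promoters of Klhl13, and TATAAA in those of Rpl22l1 and Wnk3. These 3 promoters are shown, since Rpl22l1 and Wnk3-ps had a called response to RA in both lines and Klhl13 a called genotype difference after RA in ΔPG, 5′ to 3′ on the strand of the gene, with the matches in capitals. In Rpl22l1 the capitals hold 2 overlapping copies, 1 on each strand. A match describes the letters and not a site in use.
Klhl13, chrX:23365033-23365332, minus strand: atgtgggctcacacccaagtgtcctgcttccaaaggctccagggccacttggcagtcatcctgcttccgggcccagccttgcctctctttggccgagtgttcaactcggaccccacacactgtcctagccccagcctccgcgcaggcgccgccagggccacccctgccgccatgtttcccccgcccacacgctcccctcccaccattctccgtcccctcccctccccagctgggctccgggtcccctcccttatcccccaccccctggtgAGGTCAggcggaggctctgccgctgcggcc
Rpl22l1, chr3:28805258-28805557, plus strand: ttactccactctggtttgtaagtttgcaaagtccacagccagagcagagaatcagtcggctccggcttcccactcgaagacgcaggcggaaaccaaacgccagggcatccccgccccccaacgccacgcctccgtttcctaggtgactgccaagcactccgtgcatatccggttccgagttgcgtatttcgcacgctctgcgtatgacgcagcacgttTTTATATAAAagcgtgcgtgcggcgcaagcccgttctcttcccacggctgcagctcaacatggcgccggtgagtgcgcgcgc
Wnk3, chrX:151197828-151198127, plus strand: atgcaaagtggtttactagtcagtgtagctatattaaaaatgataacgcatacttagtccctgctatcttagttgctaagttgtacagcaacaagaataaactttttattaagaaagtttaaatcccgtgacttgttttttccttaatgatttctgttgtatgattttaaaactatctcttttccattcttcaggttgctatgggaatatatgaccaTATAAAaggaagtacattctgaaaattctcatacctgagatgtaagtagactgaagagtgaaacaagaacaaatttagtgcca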

How the data were processed

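RNA-seq levels are log2 values made by the authors: per the methods and labels, reads were mapped to NCBIM37 with TopHat2 2.1.0, duplicates removed with Picard, genes counted with HTSeq 0.6.0, and counts normalized and rlog transformed with DESeq2 1.14.1, each line's table on its own, as deposited. Whether the transformation used the groups is not stated, and depth per sample is unknown. The 4C regions carry no measured value; the authors' methods name the older build, but region starts fit HindIII sites of GRCm38, which was used. Genes that varied in a table were fitted with limma 3.58.1 in R 4.3.3 (eBayes with a variance trend, Benjamini-Hochberg adjustment over all genes of the table). Calls were limited to log2 differences beyond 0.5 in either direction that had an adjusted p under 0.1. Comparisons were homozygous minus heterozygous after RA, and RA minus ES averaged over genotypes. The fits were checked on simulated data. Replicate numbers did not pair samples. Alternatives were quantile normalization, a mean rlog value of 3 as a filter, stricter limits, no limit on the difference, removal of the GC trend (smooth curve per sample, span 0.3), a replicate block, no variance trend, a model over all 12 samples, and leaving out each replicate. Tables and figures were made with Python 3.11.15, numpy 2.4.6, pandas 2.3.3 and matplotlib 3.10.9. Named were the 7 genes, the deleted gene, up to 3 called genes with the largest absolute difference per list and comparison, the nearest tested gene on each side within 500 kb, the 2 genes most alike, the markers, close relatives and the genes at the limit of the choice. The members and lists were chosen with earlier results of these data known.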

Additional observations from a re-analysis of the deposited data

Results flagged for a closer look

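The 20 values that follow are places where every sample of one group lay on one side and every sample of the other group on the opposite side, between lines or between states. The contrasts of one line or state with the other were not tested. The single genotype differences after RA were, and the results give those tests. Between lines, homozygous Klhl13 differed from ES to RA by 0.18 in ΔPG and -0.16 in ΔG (log2, as all values here), and within ΔG its RA response was -0.47 in homozygous relative to heterozygous cells. Heterozygous Gm364 differed by 0.29 in ΔPG and -0.55 in ΔG, and in ΔPG its homozygous response minus its heterozygous one was -1.05. Wnk3-ps after RA differed between genotypes by -0.15 in ΔPG and 1.24 in ΔG, and in ΔPG the difference after RA minus that in ES was -0.74. For snoZ40 the heterozygous response to RA was 1.11 in ΔPG and -0.75 in ΔG, and in ΔPG the homozygous minus the heterozygous response was -1.80. Its host Taf1d had 0.21, -0.92 and -0.997 in the same 3 places. Rpl22, with most ribosomal protein genes after RA on the same side, differed between genotypes by 0.72 in ΔPG and -0.45 in ΔG ES cells, and by 0.27 and -0.38 after RA. For Klhl9 in ΔPG the homozygous minus the heterozygous response was -0.57. The ΔPG values that subtract a response or a state from another rest on ES differences that follow GC content. With the GC trend removed they were -0.43 (Gm364), -0.24 (Wnk3-ps), -1.28 (snoZ40), -0.32 (Taf1d) and -0.17 (Klhl9). The heterozygous ΔPG responses then were -0.17 for Gm364 and -0.27 for Taf1d, on the same side as ΔG, and 0.68 for snoZ40, and that of homozygous Klhl13 was 0.16. The members' ES values also served for their choice.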

How the results depend on the processing

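The counts of the 7 genes called between genotypes after RA stayed within 1.5 times those reported under every alternative run, including each left-out replicate and the replicate block, at 1 higher in ΔPG and 4 higher in ΔG (3 under the stricter limits, where Rpl22l1 at 0.58 no longer passed, and 5 with no limit on the difference, where Klhl13 at 0.19 was added). With no limit on the difference, the genes called with RA were 5 higher and 2 lower in ΔPG, against 3 and 1 reported, and 3 higher in ΔG, against 1. With the GC trend removed 1 was higher in ΔPG, as Klhl13 (0.43) and Nup62cl (0.37) no longer passed, and without heterozygous RA replicate 1 Nup62cl was at 0.48, so that leave-outs gave 2 to 3. In ΔG, 0 were higher after quantile normalization (Wnk3-ps at 0.46) and 0 under the stricter limits, and leave-outs gave 0 to 1, Wnk3-ps passing 0.5 no longer without replicate 3 of any group. D130040H23Rik reversed: with RA in ΔPG it was -0.17 after quantile normalization, and between genotypes after RA in ΔG it was 0.015 after quantile normalization and 0.00047 with the GC trend removed, with leave-outs from -0.18 to 0.026. It also passed the limits with RA in ΔG after quantile normalization (-0.83) and was at -0.053 with the GC trend removed. The replicate block changed no call of the 7 genes, but lowered the genes called after RA in ΔPG from 53 to 27 higher and from 133 to 85 lower; without homozygous RA replicate 2, 34 were higher. The stricter limits gave 34 higher in ΔPG, and 81 higher and 194 lower in ΔG, against 149 and 322. With no limit on the difference there were 519 higher and 487 lower in ΔPG and 1070 and 1363 in ΔG after RA, and 7678 and 6002 in ΔPG and 7786 and 5894 in ΔG with RA. The cause of these changes was not tested. Read depth is unknown, so its limit on genes with low values is too.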
